A study of Mus musculus with 18 samples.

Results

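The core spliceosome genes described here were the 43 protein-coding mouse genes whose GENCODE vM21 symbols name Sm proteins, U1 and U2 snRNP proteins, LSm proteins, SF3a and SF3b subunits, or Prpf splicing factors. They were matched by symbol alone among 47069 gene identifiers in the tables, and the set was chosen with earlier results of these data known. The set holds 7 genes of the Sm ring, 4 genes of U1 and U2 snRNP proteins, 8 genes of the LSm rings, 2 LSm genes of the U7 particle, 9 genes of SF3a and SF3b, and 13 Prpf genes. The numbered snRNP symbols in the selection (such as the U1 70K protein) matched no gene, because vM21 spells them Snrnp; those 7 genes are given with the other splicing genes. Of the 43 genes, 42 passed the filter on low counts, and Sf3a2 did not.

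Each library was made from a single oocyte of a C57BL/6JAusb mouse, either at the germinal vesicle (GV) stage, when the oocyte is arrested in prophase with an intact nucleus, or at metaphase II (MII), the mature arrested egg. Young control mice were 4 weeks old. Aged mice were 12 months old and were either controls or had been given nicotinamide mononucleotide (NMN, a precursor of NAD) at 2 g/L in the water that they drank over 4 weeks. Both control sets drank water with no NMN. A mild lysis buffer was used and the nucleus was spun out before library making, per the labels, so mainly cytoplasmic RNA was read. The labels name no animals and do not say how the MII oocytes were matured. Oocytes are named here by stage, condition and the number in their title, for example MII NMN 2-1.

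Of 18 libraries deposited, 16 were used. The file of GV young control 1 was identical to that of GV young control 2-1 and was counted once, as GV young 1. GV aged control 2-2 held 5009 counts over 270 genes and was left out. This left 2 young, 2 aged and 3 NMN oocytes at GV and 3 of each at MII, with 2756181 to 5586894 counts per library. Of a list of 10 oocyte marker genes, none was at 0 in any GV library. MII NMN 1 and MII NMN 2 lacked 4 and 3 of them, where the other MII libraries lacked 0 or 1. The markers summed to 1181 and 1580 CPM in MII NMN 1 and 2, against 3326 to 22919 CPM in the other MII libraries. Malat1 and Neat1, RNAs kept in the nucleus, summed to 0.772 to 302 CPM at GV and 18.8 to 1396 CPM at MII, and the part of this in the results was not tested. The 12 cumulus and granulosa markers summed to between 0 and 297 CPM (counts scaled to a common library total), the 6 immune markers to between 0 and 237 CPM and the 6 theca and stroma markers to between 0 and 15.9 CPM.

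Because no animal is named, each group is treated as 1 sample and no p-value is given; the spread is that between single oocytes, which may be technical. A gene was counted as lower or higher when the group means differed at least 2-fold, after 1 CPM was added to each, and no oocyte of 1 group overlapped the other. In the main comparisons that count is set beside the share of the 12161 genes kept that met the same rule. Where oocytes are left out or a setting is changed, the share is given only where stated. With fewer oocytes, absence of overlap is more common for every gene, so a count without its share is not a result about the members. Ratios between groups are log2 ratios of mean CPM + 1, which understates changes of low genes. Single values are CPM after TMM scaling, and levels are compared between genes only in the deposited TPM, which is per transcript length. The labels do not say how the RNA was primed, and loss of an RNA and shortening of its poly(A) tail cannot be told apart.

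The spliceosome removes introns from nuclear transcripts. Sm proteins form a ring on the U1, U2, U4 and U5 small nuclear RNAs, built from the pairs SmD1 with SmD2 and SmB with SmD3 and the trimer of SmE, SmF and SmG. LSm proteins form related rings, in which LSm8 marks the nuclear ring on U6 and LSm1 the cytoplasmic ring that promotes decapping and decay of mRNA. A fully grown GV oocyte is transcriptionally quiet, so its stored mRNAs are translated, deadenylated or degraded while it matures, with almost no new synthesis.

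Some libraries stood apart across the whole set. MII NMN 1 and MII NMN 2 had no count for 22 and 24 of the 43 genes, against 10 in MII NMN 2-1 and 0 to 6 in every other oocyte. These same libraries held 6400 and 5640 detected genes of all kinds, with 43.0% (95% Wilson interval 42.9% to 43.0%) and 33.2% (33.2% to 33.3%) of their counts on mitochondrial genes. The deposited TPM of the 43 genes summed to 1763 and 821 there, and to 10642 in MII NMN 2-1. Some titles carry a batch number 2-n. GV young 1 was deposited under a title of each kind, so its batch is not known. At GV, the 3 oocytes with 2-n titles had sums of 13357 to 14321 TPM and GV young 1 had 15687 TPM, while the other 3 had 7003 to 7538 TPM. The first 4 differed without overlap from the other 3 for 15 of the 43 genes, 9 higher and 6 lower in the first 4, against 8.06% of all genes kept higher and 18.2% lower. In these 4 libraries and the 3 MII libraries with 2-n titles, 11.9% to 14.6% of the gene values above 0 were not whole numbers, against 19.5% to 29.0% in the other 9, and the part of this difference in the results was not tested.

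**Figure D1:**
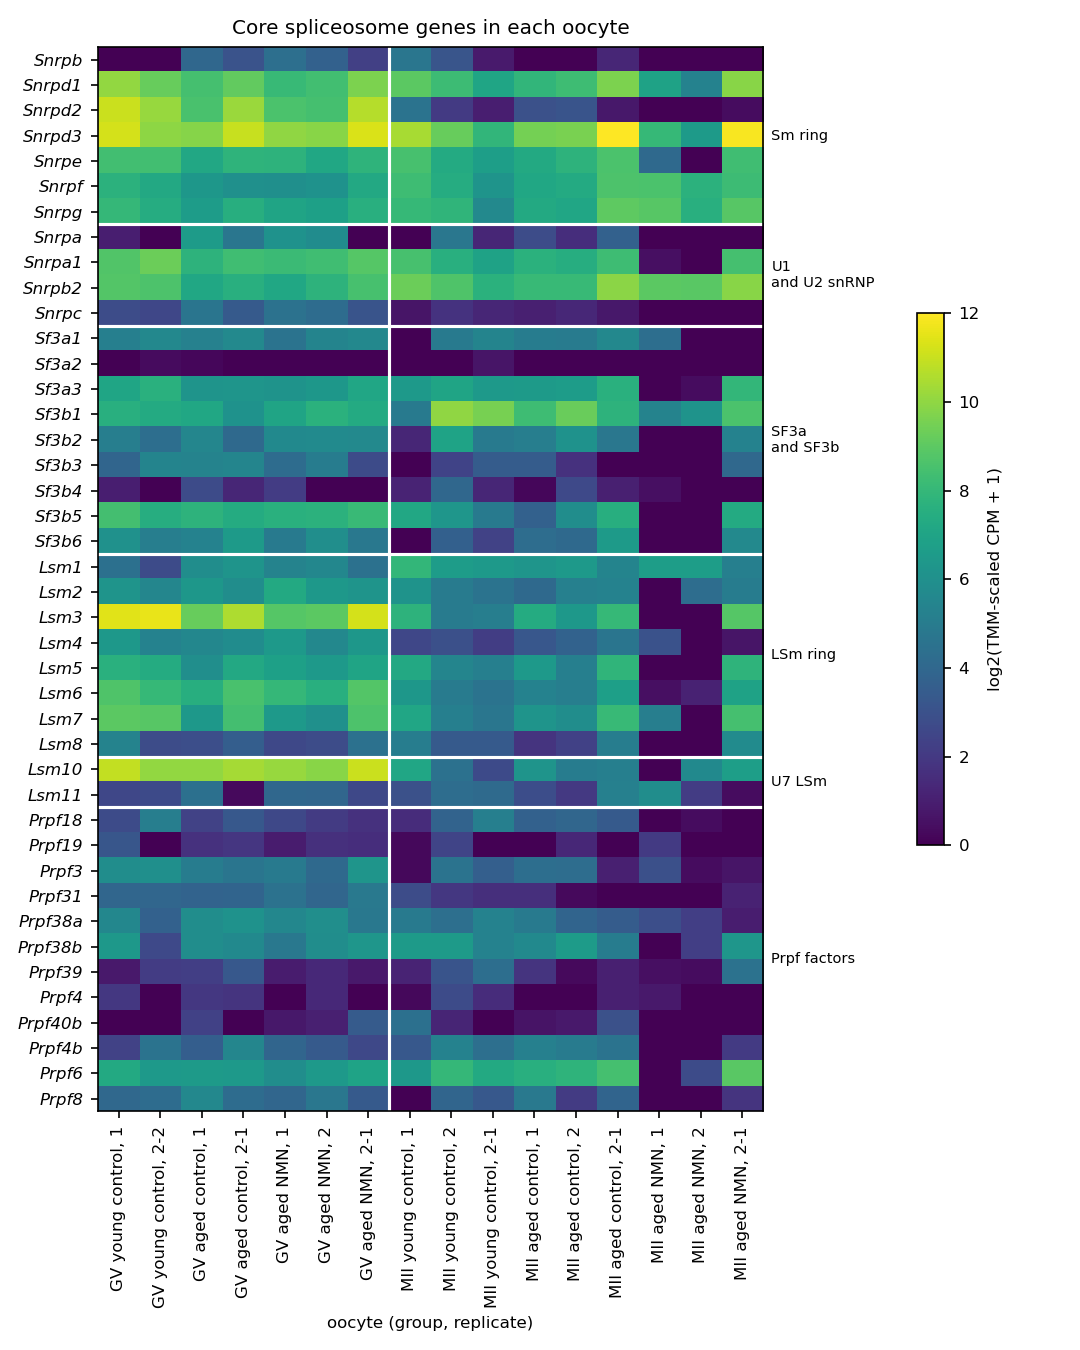
Core spliceosome genes (42 of the 43 in rows, by protein group) in each of the 16 oocytes (columns); the colour is log2 of TMM-scaled CPM + 1, and the white vertical line parts GV from MII. Snrpd2 and Lsm10 are bright in all 7 GV oocytes and darker in the 9 MII oocytes, where Lsm10 stays mid-scale in several. MII NMN 1 and 2 hold the most genes at 0.

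In GV oocytes the set was led by LSm genes, and in MII oocytes by Sm genes. By mean deposited TPM over the 7 GV oocytes, the order was Lsm3 (3059 ± 1885, SD), Lsm10 (1821 ± 424), Lsm7 (1064 ± 674), Snrpe (771 ± 175), Snrpd1 (770 ± 308) and Snrpd2 (675 ± 396). Lsm3 alone made up 27.1% of the summed TPM of the 43 genes and Lsm10 made up 16.2%. These means cover unlike oocytes: Lsm3 led in the 3 GV oocytes with 2-n titles and in GV young 1 (24.8% to 39.3% of the sum), and Lsm10 led in the other 3, with 19.8% to 22.9% against 13.3% to 19.0% for Lsm3. In those 3, Lsm7 at 314 to 381 TPM was also below Snrpe at 576 to 733 TPM. Over the 9 MII oocytes the order was Snrpe (764 ± 481), Snrpd1 (588 ± 423), Snrpg (512 ± 222), Snrpb2 (491 ± 175), Lsm7 (489 ± 541) and Snrpd3 (399 ± 401). Neighbours in both orders lie within the larger of their SDs of each other, apart from the step below Lsm10 at GV, which is wider than the SD of either gene. Snrpe had much the same mean at both stages and Snrpd1 a lower one at MII, with a wide SD at both, while Lsm3, Lsm10 and Snrpd2 left the leading places.

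**Figure D2:**
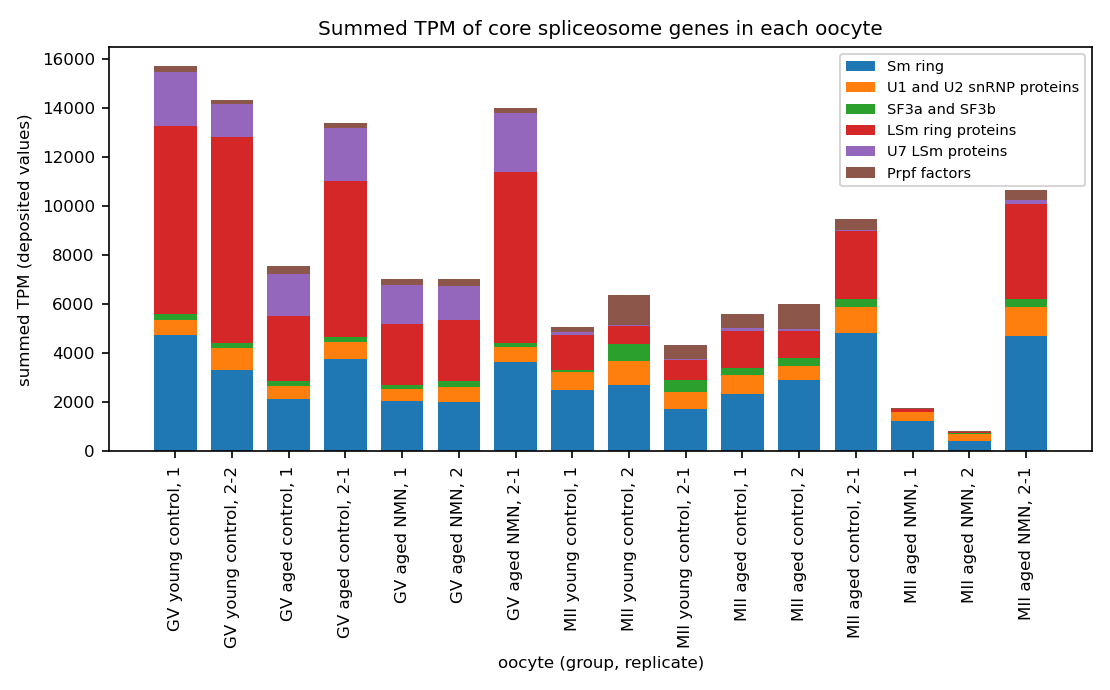
Deposited TPM of the 43 genes summed by protein group (stacked bars) in each oocyte. The 3 GV oocytes with 2-n titles and GV young 1 reach 13357 to 15687 TPM, the other 3 GV oocytes 7003 to 7538 TPM, and the MII oocytes range from 821 to 10642 TPM.

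The comparison of MII with GV asks which of these stored mRNAs changed at maturation relative to the other RNA of their library. CPM and TPM give no amount per oocyte. A gene can thus be higher at MII with no rise in its amount, if other mRNAs fell more. In young mice 16 of the 43 genes were lower at MII and 4 were higher, where 15.4% of all genes kept were lower and 16.6% were higher. In aged controls 16 were lower and 5 higher, beside 25.9% and 8.33% of all genes. In NMN oocytes 18 were lower and 3 higher, beside 26.8% and 3.34% of all genes. The members called lower were thus 37.2%, 37.2% and 41.9% of the set. The median log2 ratio over the 43 genes was -0.50 in young, -0.21 in aged and -1.23 in NMN oocytes, beside medians over all genes kept of 0.35, -0.29 and -0.82. The young median was 0.11 with deposited TPM (0.67 over all genes) and -0.13 without GV young 1 (0.57 over all genes). Its sign thus turned with deposited TPM, while it stayed below the median of all genes in both. In NMN oocytes, without MII NMN 2-1 the median was -3.40 (-1.33 over all genes) and 31 genes were lower. Without MII NMN 1 and 2 the NMN median was -0.45, above the -0.93 over all genes, and 11 genes were higher; without MII NMN 2 alone it was -0.86 beside -0.93. The number higher in young oocytes was 8 without GV young 1, 7 without GV young 2-2 and 8 without MII young 1. In aged controls it was 8 without either GV oocyte. The share of all genes was not worked out for the counts given here with oocytes left out, so they are not read as results about the members. GV young 2-2 has a 2-n title, the batch of GV young 1 is not known, and the titles of MII young 1 and 2 name no batch. Stage and title batch are thus partly confounded in young oocytes. Lsm3, Lsm5, Lsm6, Lsm7, Snrpd1, Snrpd2 and Snrpa1 were lower at MII there. They were also higher in the GV oocytes with 2-n titles and GV young 1 than in the other GV oocytes. Snrpb and Lsm11, higher at MII, were lower in them, and so was Snrpc, which was lower at MII.

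The cytosolic ribosomal protein genes, another set of stored mRNAs for a core machine, had medians of -3.44, -3.30 and -3.82 over 79 genes in the 3 conditions. Those medians lie well below the medians of the spliceosome set, and the difference between the sets was not tested. Translation initiation factors (55 genes) had medians of 0.00, -0.72 and -0.49.

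**Figure D3:**
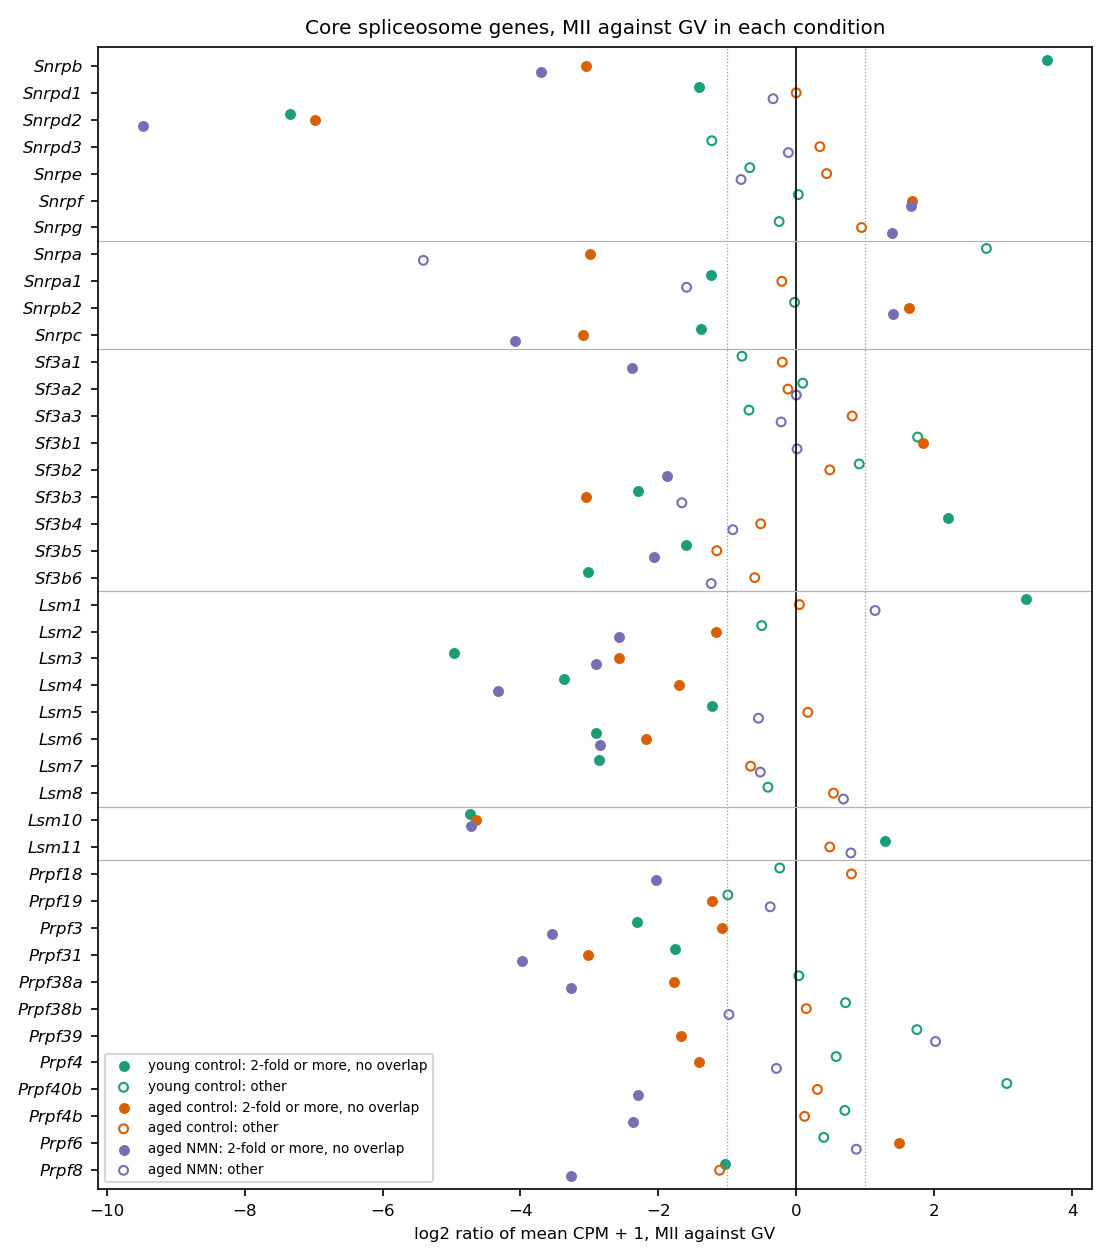
Log2 ratio of mean CPM + 1 at MII against GV for 42 of the 43 core spliceosome genes (rows, by protein group) in young control, aged control and aged NMN oocytes; filled points differ at least 2-fold with no overlap, and dotted lines mark 2-fold. Snrpd2 lies at -7.34, -6.98 and -9.47 and Lsm10 at -4.73, -4.64 and -4.71, while most other points lie between -4 and 2.

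A small group of members was lower at MII in every condition. The 8 genes Snrpd2, Lsm10, Lsm3, Lsm4, Lsm6, Prpf3, Prpf31 and Snrpc were lower at MII in each of the 3 conditions, beside 8.54% of all genes kept, and no member was higher in all 3, beside 0.469%. With the 9 MII oocytes set against the 7 GV oocytes, 7 of these (all but Prpf3) did not overlap, beside 6.98% of all genes kept. None of the 43 was higher by that rule, beside 0.271% of all genes. These 7 were picked for having no overlap, so leaving oocytes out could hardly turn their ratios positive, and only the sizes are informative. The settings were MII NMN 1 and 2 both left out, each single oocyte left out, the 2-n titles left out or alone, and the other scalings. Over these, Snrpd2 ranged from -9.76 to -5.47, Lsm10 from -5.03 to -4.13, Lsm3 from -4.01 to -2.48 and Snrpc from -3.36 to -1.63. Without the 2-n titles and GV young 1, 13 members were lower and 4 higher, beside 18.9% and 2.95% of the genes kept there. With GV young 1 put back the counts were 12 and 1, and with the library of 5009 counts kept 2 were lower. No share of all genes was worked out for either setting. Another 6 of the 43 met the rule in no condition, beside 38.7% of all genes kept.

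Snrpd2 encodes SmD2 and lies at chr7:19149722-19153542 on the plus strand of GRCm38. It had the lowest ratio of the set in each condition. The GV values were 2084 and 1138 CPM in young, 380 and 1159 CPM in aged, and 389, 356 and 1606 CPM in NMN oocytes. At MII they were 22.8, 3.11 and 1.03 CPM in young oocytes, and 6.86, 7.76 and 0.727 CPM in aged oocytes. The 3 MII NMN oocytes held 1 count of Snrpd2 among them (95% exact Poisson interval 0.00227 to 0.499 CPM, counting error only). Every MII oocyte was thus below every GV oocyte, with a wide gap between the lowest GV and the highest MII value. Among GV oocytes the 3 with 2-n titles and GV young 1, at 1138 to 2084 CPM, were above the other 3, at 356 to 389 CPM. Over all conditions the log2 ratio was -9.76 within the 2-n titles and GV young 1, and -5.47 without them.

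Its partner Snrpd1 (SmD1) did not follow. Young oocytes held 1070 and 582 CPM at GV against 498, 296 and 132 CPM at MII, a log2 ratio of -1.42 with no overlap. Aged oocytes held 353 and 546 CPM at GV against 239, 306 and 802 CPM at MII, and the groups overlapped. In NMN oocytes the values were 275, 329 and 791 CPM at GV and 121, 38.5 and 945 CPM at MII, again overlapping. Per transcript length, there were between 52.4 and 105 Snrpd2 transcripts for each 100 of Snrpd1 in the 7 GV oocytes (median 97.4). The pair was near equal, at 97.4 to 105, in the 3 oocytes with 2-n titles and GV young 1, and stood at 52.4 to 69.4 in the other 3. In the 9 MII oocytes there were between 0 and 2.30 (median 0.389), also in MII aged 2-1 and MII NMN 2-1, where Snrpd1 was at its MII highest.

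**Figure D4:**
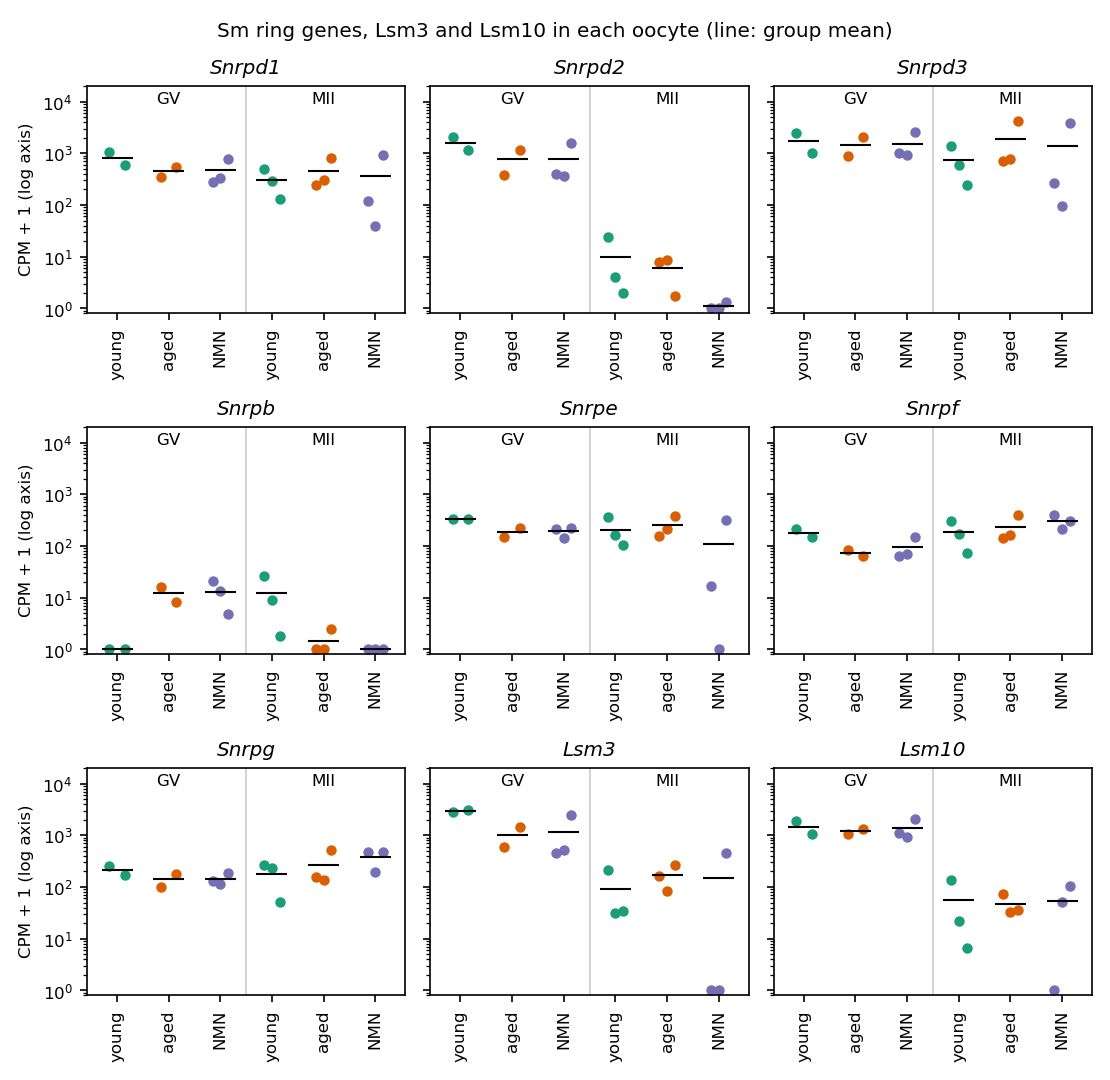
CPM + 1 on a log axis for the 7 Sm ring genes, Lsm3 and Lsm10; each point is an oocyte, coloured by condition, and each line is a group mean. Snrpd2 drops from 356 to 2084 CPM at GV to at most 22.8 CPM at MII, while Snrpd1, Snrpd3, Snrpe, Snrpf and Snrpg overlap between the stages.

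The remaining ring members varied more between oocytes. Snrpd3 (SmD3) was highest among MII oocytes in MII aged 2-1, at 4122 CPM, and in MII NMN 2-1, at 3786 CPM. Yet MII young 2-1 held only 239 CPM, the lowest of the young and aged oocytes, and MII NMN 1 and 2 held 260 and 92.8 CPM. GV values ran from 904 to 2528 CPM, so no maturation comparison of Snrpd3 was free of overlap. Snrpe (SmE) overlapped in all 3 conditions as well.

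Snrpf and Snrpg encode SmF and SmG, which share the trimer with SmE. Snrpf was higher at MII in aged oocytes (141, 161 and 402 CPM, against 81.1 and 63.8 CPM at GV, log2 ratio 1.68). It was also higher in NMN oocytes (391, 210 and 302 CPM against 62.1, 69.2 and 150 CPM, log2 ratio 1.67), including the MII NMN 1 and 2 libraries in which most of the set was low. In young oocytes it was level, at 0.03, with overlap. Snrpg was higher at MII only in NMN oocytes by this rule (476, 191 and 466 CPM against 129, 113 and 189 CPM, log2 ratio 1.39); its ratios of 0.95 in aged and -0.25 in young oocytes came with overlap, and differences between the conditions were not tested. Counts of Snrpg were fractional in 15 libraries and those of Snrpf in 10, so some of their reads were shared with similar sequences and the levels are less certain.

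Snrpb, which encodes SmB, was scarce at both stages. GV young 1 and 2-2 had no count, GV aged oocytes had 15.2 and 7.36 CPM, and GV NMN oocytes had 20.1, 12.2 and 3.85 CPM. The GV oocytes with 2-n titles and GV young 1, at 0 to 7.36 CPM, lay below the other GV oocytes, at 12.2 to 20.1 CPM. At MII young oocytes had 25.3, 8.09 and 0.826 CPM, whereas aged oocytes had 0, 0 and 1.45 CPM and NMN oocytes had none. The direction at maturation therefore differed: at least 29.3-fold higher in young oocytes (taking 3 counts in the group as the floor), lower in aged oocytes (log2 ratio -3.05) and at least 36.0-fold lower in NMN oocytes. Both young GV oocytes are on the lower side at GV, so condition and title batch cannot be told apart for Snrpb. Its close homologue Snrpn (SmN), which was looked up after Snrpb had been seen, was also low, at up to 11.1 CPM in the GV oocytes; at MII it ran from 0.313 to 24.3 CPM. Together the pair came to at most 12.7 transcripts per 100 of Snrpd3 by TPM in any oocyte, and reads of such homologues can be split between them.

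Sequences at the 3′ ends are shown next because the cytoplasmic polyadenylation element (CPE), a U-rich motif near the poly(A) signal, is known to control tail length of stored oocyte mRNAs. The last 100 bases of each annotated 3′UTR (GENCODE vM21, transcript strand) were searched for the CPE forms TTTTAT and TTTTAAT and for the poly(A) signals AATAAA and ATTAAA. Of 42 members with a 3′UTR of that length, 10 held a CPE form (23.8%), close to the 20.3% of 10072 protein-coding genes kept. Among the 8 genes lower in all 3 conditions, 1 held a CPE form (Lsm3), and among the other 34 members 9 did. A poly(A) signal was found in 4 of those 8 and in 28 of the other 34. Snrpd2, Lsm10, Lsm6 and Prpf3 had neither signal in the window, and the annotated end may not be the end used in oocytes. The following windows of 30 bases, in GRCm38, show members of each kind with the CPE form in capitals, from chr10:75537336-75537365 (plus strand) for Snrpd3, chr1:54985223-54985252 (minus strand) for Sf3b1, chr11:45928306-45928335 (minus strand) for Lsm11 and chr6:91522596-91522625 (plus strand) for Lsm3. Sf3b1 begins inside a first copy that is cut by the window.
Snrpd3: ctgtttggtttaTTTTATtgtattaataaa
Sf3b1: TTTATattgtatTTTTAATatttgttgtat
Lsm11: gcaatgttctgcTTTTAATatgtgtcaaat
Lsm3: aaattaaatttgatgtttccttTTTTATta
In Snrpd3 the CPE form starts 12 bases before the poly(A) signal. In Lsm3 it lies 20 bases after the signal, at the very end of the transcript.

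For contrast, 3 of the genes lower in all conditions have a poly(A) signal with no CPE form in the window: Lsm4 at chr8:70678716-70678745, Prpf31 at chr7:3642449-3642478 and Snrpc at chr17:27851929-27851958, all on the plus strand. Capitals mark the poly(A) signal.
Lsm4: ttctgtttgaaaAATAAAagcaaacaccat
Prpf31: ccccaaaaccaaAATAAAgccaaaacaaca
Snrpc: gtgaaatgtgaaAATAAAgtcatcagctct

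The U1 and U2 snRNP proteins recognise the 5′ splice site and the branch point. Snrpb2 (the U2 B″ protein) was the most constant of the 4 genes in NMN libraries: MII NMN oocytes held 510, 482 and 922 CPM, against 141, 218 and 364 CPM at GV, a log2 ratio of 1.40 with no overlap. In aged oocytes it was also higher at MII (272, 275 and 977 CPM, against 140 and 186 CPM, log2 ratio 1.63), and in young oocytes it was level at -0.02. Its partner Snrpa1 (the U2 A′ protein) moved otherwise. It was lower in young MII oocytes (363, 190 and 120 CPM against 422 and 640 CPM, log2 ratio -1.24), overlapped in aged oocytes, and was 0.395, 0 and 351 CPM in the MII NMN oocytes.

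Snrpc (the U1 C protein), at chr17:27838150-27851968, was low but lower still at MII. GV values were 5.92 and 4.96 CPM in young, 24.0 and 9.57 CPM in aged and 22.2, 17.6 and 7.69 CPM in NMN oocytes. MII values were 0.627, 2.33 and 1.45 CPM in young and 1.06, 1.5 and 0.727 CPM in aged oocytes. NMN MII oocytes had none, at least 47.2-fold lower with 3 counts in the group as the floor. Counts of Snrpc were fractional in 7 libraries. Snrpa (the U1 A protein) ran from 0 to 95 CPM at GV, with 1.03 and 0 CPM in the young oocytes, and was lower at MII by this rule in aged oocytes alone (log2 ratio -2.98).

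SF3a and SF3b hold U2 at the branch point. SF3b3 and SF3b5 genes were among those lower: Sf3b3 was 13.9 and 42.0 CPM in young GV and 0, 4.36 and 10.3 CPM in young MII oocytes (log2 ratio -2.30), and -3.05 in aged oocytes. Sf3b5 was lower in young (-1.59) and NMN (-2.07) oocytes. Sf3b1, the largest subunit of SF3b, was higher at MII in aged oocytes. These held 304, 602 and 218 CPM against 139 and 68.4 CPM at GV, a log2 ratio of 1.84. Young MII oocytes held 29.3, 1042 and 734 CPM against 191 and 163 CPM, so MII young 1 lay below both GV oocytes and the groups overlapped. Sf3a2 had at most 0.620 CPM in any oocyte and was not analysed further.

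Lsm3, at chr6:91515928-91522625, is shared by the nuclear and cytoplasmic rings and was much lower at MII. Its GV values were 2785 and 3066 CPM in young, 598 and 1449 CPM in aged and 462, 511 and 2424 CPM in NMN oocytes. At MII it was 212, 31.1 and 33.7 CPM in young, 164, 84.6 and 265 CPM in aged, and 0, 0 and 450 CPM in NMN oocytes. No MII oocyte reached the lowest GV value, although MII NMN 2-1 at 450 CPM came close to GV NMN 1 at 462 CPM. Lsm4 and Lsm6, also shared by both rings, were lower as well. Lsm4 went from 38.4 to 85.7 CPM over the GV oocytes to 0 to 24.4 CPM over the MII oocytes, and Lsm6 from 182 to 442 CPM to 0.395 to 119 CPM.

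The genes that tell the rings apart were low. Lsm8, of the nuclear ring, ran from 5.03 to 40.4 CPM at GV and from 0 to 53.5 CPM at MII, and met the rule in no condition. Lsm1, of the cytoplasmic decay ring, was higher in young MII oocytes, at 244, 96.8 and 86.7 CPM against 20.9 and 5.74 CPM at GV (log2 ratio 3.33). In aged oocytes the GV values of 58.7 and 72.6 CPM lay inside the MII range of 42.2 to 86.3 CPM. Lsm1 was detected at 103 and 102 CPM in MII NMN 1 and 2, unlike its ring partners Lsm3 and Lsm5, which had no count there. Lsm7 was lower in young MII oocytes (-2.87), but its counts were fractional in 15 libraries.

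The U7 snRNP processes the 3′ ends of histone mRNAs, and its ring carries LSm10 and LSm11 in place of SmD1 and SmD2. Lsm10, at chr4:126096623-126098584, was lower by about the same ratio in the 3 conditions. Young oocytes had 1880 and 1052 CPM at GV and 136, 21.2 and 5.58 CPM at MII. Aged oocytes had 1050 and 1330 CPM at GV and 73.2, 32.0 and 35.3 CPM at MII, and NMN oocytes had 1130, 938 and 2080 CPM and then 0, 50.6 and 105 CPM. The lowest GV oocyte was at 938 CPM and the highest MII oocyte at 136 CPM. Lsm10 was thus alike between the GV groups and alike between the MII groups. Lsm11 was scarce, at 0.245 to 20.7 CPM at GV and 0.313 to 58.5 CPM at MII, and was higher in young MII oocytes alone (6.90, 18.5 and 16.9 CPM against 4.89 and 5.48 CPM).

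The Prpf genes, many of which act in the U4/U6.U5 tri-snRNP, were mostly low at either stage. Prpf31, needed to join U4/U6 to U5, was 13.3 to 27.7 CPM in every GV oocyte and at most 5.86 CPM in every MII oocyte. Prpf3, of the U4/U6 particle, was lower in each condition (log2 ratios -2.31, -1.07 and -3.54), but over all oocytes MII young 2 at 22.4 CPM lay above GV NMN 2 at 16 CPM. Prpf8, at the catalytic centre, was lower in young (-1.04) and NMN (-3.27) oocytes from GV levels of 9.61 to 48 CPM. Prpf6, a bridging factor of the tri-snRNP, was higher in aged MII oocytes, with 187, 219 and 355 CPM against 90.6 and 88.3 CPM (1.49). Its ratio in young oocytes was 0.40, with overlap.

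Other splicing genes were read from 7 lists of 107 genes in all, chosen with earlier results of these data known. In the MII against GV comparison over all conditions, 8 of 36 other spliceosome proteins, 1 of 7 Snrnp genes and 1 of 16 snRNP assembly genes were lower, and 1 of 7 exon junction genes was higher, beside 6.98% and 0.271% of all genes kept. Bud31, a late spliceosome factor, was 19.4 ± 19.7 CPM at MII against 939 ± 202 CPM at GV (SD over oocytes, log2 ratio -5.52). Snrnp25, a protein of the minor spliceosome, was 2.18 ± 3.15 against 94.9 ± 28.4 CPM (-4.91), and Txnl4a, a U5 protein, was 14.2 ± 26.3 against 212 ± 63.8 CPM (-3.81). Gemin7, of the SMN complex that loads Sm rings, was 29.7 ± 28.5 against 267 ± 168 CPM (-3.13). Rnps1, an exon junction protein, was higher at 130 ± 55.5 against 37.2 ± 23.3 CPM (1.78). None of 13 SR protein genes, 16 hnRNP genes or 12 decapping genes met the rule over all conditions, with list medians of 0.28, 0.29 and 0.48.

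The comparison of aged with young controls asks how the set differs with the age of the mouse. At GV, 6 members were lower and 7 higher in aged oocytes, beside 5.70% and 19.7% of all genes kept; the medians were -0.22 and 0.29. Lower were Lsm3 (-1.51), Snrpb2 (-1.36), Snrpf (-1.30), Lsm7 (-1.19), Sf3a3 (-1.14) and Prpf3 (-1.07). Snrpb2 held 140 and 186 CPM in aged against 437 and 405 CPM in young GV oocytes. Higher were Snrpa (5.33), Snrpb, Lsm1 (2.22), Sf3b4, Snrpc (1.47), Prpf39 and Prpf38a (1.09), of which Snrpb had no count in young oocytes and was at least 29.1-fold higher. Lsm1 held 58.7 and 72.6 CPM in aged against 20.9 and 5.74 CPM in young GV oocytes.

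GV young 2-2 and GV aged 2-1 have 2-n titles, GV aged 1 has not, and the batch of GV young 1 is not known, so age and title batch cannot be told apart here. Immune marker genes moved with the same split: the 6 summed to 9.27 and 8.87 CPM in young, 237 CPM in GV aged 1 and 14.2 CPM in GV aged 2-1, with 4 or 5 of the 6 at 0 in each of these oocytes, and their part in the result was not tested. In GV NMN 1, 2 and 2-1 they summed to 101, 173 and 21.9 CPM. With GV aged 2-1 alone set against the young GV oocytes, the median was -0.18 over members and 0 over all genes. Without GV aged 2-1, 12 members were lower, a count for which the share of all genes was not worked out. The medians were then -0.33 over members and 0.12 over all genes. With deposited TPM 1 was lower and the median was 0.14, and without GV young 1 the median was 0.10.

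At MII, 1 member was lower and 2 were higher in aged oocytes, beside 5.37% and 1.77% of all genes; the medians were 0.00 and -0.27. Lsm1 was lower, with 74.9, 86.3 and 42.2 CPM in aged against 244, 96.8 and 86.7 CPM in young oocytes (-1.06), where the nearest oocytes were 86.3 and 86.7 CPM. Lsm4 was higher (8.62, 12.5 and 24.4 against 4.81, 6.53 and 3.51 CPM, 1.44), and so was Sf3b6 (18.8, 16 and 93.1 against 0, 11.7 and 4.13 CPM, 2.80). Without MII young 1 there were 7 higher and 3 lower, without MII young 2 there were 5 higher, and without MII aged 2-1 there were 1 higher and 4 lower. Lower members numbered 4 without MII aged 1, 2 without MII aged 2 and 3 without MII young 2-1. The share of all genes was not worked out for these counts. The member medians were 0.18 without MII young 1 and 0.29 without MII young 2, beside -0.25 and -0.19 over all genes. Without MII aged 2-1 both medians were -0.27.

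NMN and aged control oocytes differed little at GV and more at MII. At GV 3 members were lower with NMN and none higher, beside 5.39% and 2.61% of all genes; both medians were near 0 (0.04 and 0.01). All 7 Sm ring genes lay between 0.02 and 0.37. The lower members were Sf3b3 (18, 32.0 and 5.77 against 40.1 and 42.9 CPM, -1.12), Prpf39 and Prpf4, of which the last held at most 2.80 CPM. Lower members numbered 6 without either GV aged oocyte or without GV NMN 2 and 5 without GV NMN 1, and without GV aged 1 there were 4 higher. No share of all genes was worked out for these counts. With 5 CPM added none was lower.

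At MII 10 members were lower with NMN and none was higher, beside 11.3% and 1.31% of all genes; the medians were -0.67 and -0.33. Lower were Snrpd2, Lsm4 (-2.17), Sf3a1 (-2.38), Prpf4b (-3.93), Prpf18 (-3.57), Prpf8 (-3.10), Prpf38a (-2.0), Prpf40b, Snrpa and Snrpc. Prpf4b, a splicing kinase, held 0, 0 and 3.13 CPM against 36.1, 31.3 and 22.9 CPM in aged controls. Sf3a1 held 19.0, 0 and 0 CPM against 32.2, 31.0 and 48.3 CPM. MII NMN 1 and 2, the libraries poor in the whole set, are 2 of the 3 NMN oocytes here, and their part in the count was not separated from that of NMN. In MII NMN 2-1 alone, 14 members were lower and 7 higher than in all 3 aged oocytes, beside 18.1% and 9.83% of the genes kept there, and the medians were 0 over members and -0.38 over all genes. Without MII NMN 2-1, 27 members were lower and the medians were -2.42 and -0.71. Without MII NMN 2 they were -0.16 and -0.36, and without MII aged 2-1 they were -0.24 and -0.29, so in both the members no longer lay below all genes. Without MII aged 2-1, 2 members were higher. The share of all genes was not worked out for this count or for the 27 lower.

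**Figure D5:**
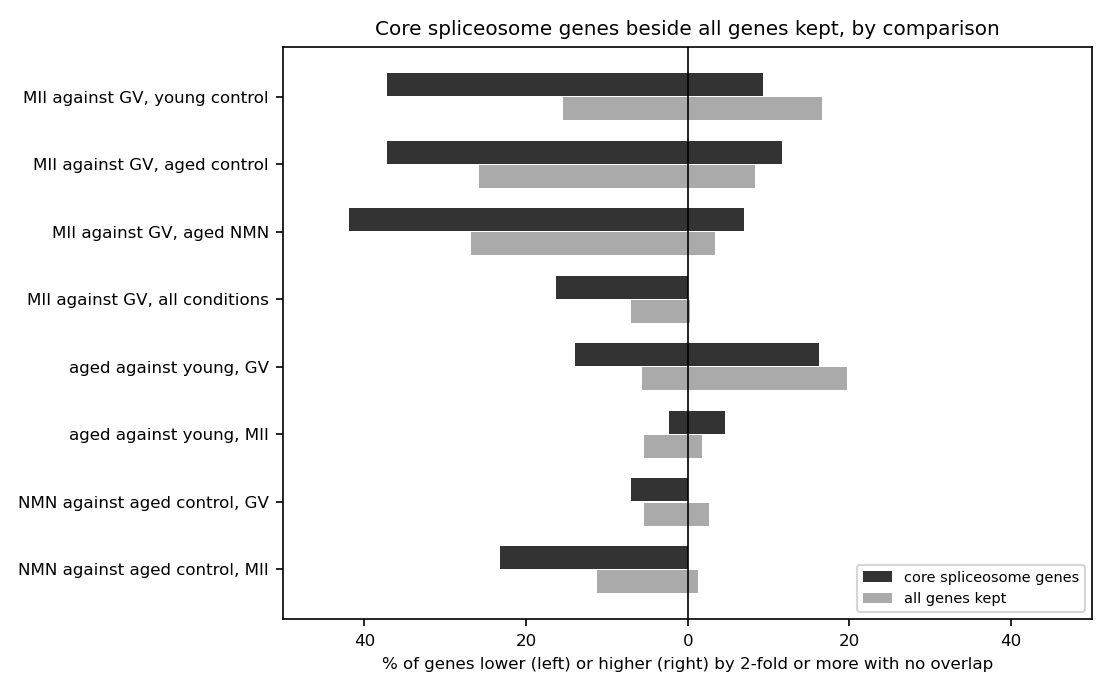
Share of the 43 core spliceosome genes (dark) and of the 12161 genes kept (grey) that were lower (left) or higher (right) at least 2-fold with no overlap, in each of the 8 comparisons. The dark bars reach further left than the grey in 7 of 8 comparisons, the exception being aged against young at MII.

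Members differed from other genes in some features of sequence that no measured value chose. Median coding length was 861 bases in the 43 members against 1347 bases in 10741 protein-coding genes kept, and 390 bases in the 8 genes lower in all conditions against 1026 bases in the other 35. The 8 include 5 small Sm and LSm genes, whose proteins are short. Promoters were read from 250 bases before to 50 after the start site, from RefSeq (GRCm38.p6), which matched 35 of 43 members, and searched on both strands. The ETS core CCGGAAG was in 14 of 35 member promoters (40%) and in 19.5% of 8528 promoters of protein-coding genes kept. It was in 6 of 7 SF3a and SF3b promoters, in 1 of the 7 matched genes lower in all conditions (Snrpc) and in 13 of the other 28. The GC box GGGCGG was in 23 of 35 (65.7%) beside 63.2%, CCAAT in 15 (42.9%) beside 39.2%, and TATAAA in 2 (5.71%) beside 7.28%. The motifs were counted separately and can overlap. Shown are 100 bases before to 20 after the start for Snrpd2 (chr7:19149738-19149857) and Lsm10 (chr4:126096553-126096672), the members with the lowest ratios, and for Snrpb2 (chr2:143062969-143063088), which was higher at MII in aged and NMN oocytes, all on the plus strand. Capitals mark the GC box and the ETS core on either strand.
Snrpd2: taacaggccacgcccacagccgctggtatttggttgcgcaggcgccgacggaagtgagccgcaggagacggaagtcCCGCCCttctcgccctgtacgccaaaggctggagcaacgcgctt
Lsm10: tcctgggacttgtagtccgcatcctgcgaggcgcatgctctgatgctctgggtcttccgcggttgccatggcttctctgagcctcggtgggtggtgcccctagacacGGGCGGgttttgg
Snrpb2: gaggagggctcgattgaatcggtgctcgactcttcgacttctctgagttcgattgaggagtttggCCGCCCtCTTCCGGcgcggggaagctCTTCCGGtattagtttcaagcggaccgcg
Snrpb2 holds the ETS core 2 times in this stretch, and Snrpd2 and Lsm10 do not hold these letters in it.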

How the data were processed

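Per the file headers, the authors deposited a table for each oocyte with an expected count, a TPM and an FPKM for every gene; FPKM was not used. The submitters' processing notes list TopHat2 (version 2.1.1), Cufflinks, Trim Galore (version 0.4.5) and FastQC (version 0.11.8), with mm10 or GRCm38 as builds; the step that made the tables is not given in the sources used here. Deposited expected counts were rounded to whole numbers before filtering and scaling, and no count model was fitted. They were scaled by TMM (edgeR 4.0.16 in R 4.3.3) after its filterByExpr filter (minimum count 10), which kept 12161 genes. Deposited TPM served for levels between genes and as an alternative. Library totals were 2756181 to 5586894 counts, and intervals cover counting error only.

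Each library is 1 oocyte with no animal named, so no test was run, and comparisons are ratios of means with the spread and overlap of oocytes. The comparison was also run on simulated counts with known changes. Their spread was set and not fitted to these oocytes, so the run checks the code and not the calls made here. Members, lists and thresholds were chosen with earlier results of these data known. Members named are those that met the rule and whose higher group had a mean of 10 CPM or more, up to 15 a direction, and others by their role; Snrpn was chosen after values were seen. Sequences came from GENCODE vM21 transcripts and RefSeq promoters. Alternatives were other scalings, no filter, 5 CPM added, TPM, titles of batch 2-n left out or alone, the low library kept and each oocyte left out. Leaving out MII NMN 1 and 2 together, or GV young 1 with the 2-n titles, was chosen after seeing the data. The values of 1 member are not reported here singly; it stays in the counts and medians.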

Additional observations from a re-analysis of the deposited data

Results flagged for a closer look

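Snrpb differed in direction at maturation between the conditions: its log2 ratio of mean CPM + 1, MII against GV, was 3.63 in young control, -3.05 in aged control and -3.71 in aged NMN oocytes, with no overlap between stages in any of them. The difference between conditions was not tested, and the values rest on at most 25.3 CPM. At GV, Snrpb was lower in the oocytes with 2-n titles and GV young 1 than in the others. Both young GV oocytes are on that lower side, so condition and title batch cannot be told apart. Lsm1 was higher in aged than young oocytes at GV (2.22) and lower at MII (-1.06), each without overlap; this difference was not tested either. The GV aged control library that was left out held 44 counts of core spliceosome genes among its 5009, of which 40 were Lsm10, the gene with the second highest mean TPM of the set in GV oocytes.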

How the results depend on the processing

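Of 195 list values (medians and counts) under settings other than leaving out 1 oocyte, 141 stayed within the spread between oocytes or within 1.5 times the count reported, and of 159 with 1 oocyte left out 127 did. No single member that met the rule changed sign in 588 ratios with 1 oocyte left out or in 762 under the other settings. The rule needs groups without overlap, so leaving oocytes out could hardly have changed a sign. The settings that only leave oocytes out are therefore no check of direction. The share of all genes was worked out for few of these settings and is given only where stated. A count below without its share is a check of stability and not a result about the members.

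With RLE size factors the median log2 ratio of the set, MII against GV, was -0.87 in young and -0.37 in aged controls, with 2 members higher in young; the median of all genes there was 0.10 in place of 0.35. The aged against young median at MII was then 0.20 with 0 lower. With library totals 1 member was higher in NMN oocytes at MII against GV, 3 were lower in aged GV and 0 in aged MII oocytes against young, and the NMN median at GV was -0.20. With 5 CPM added 2 were higher in young oocytes at maturation and 0 lower with NMN at GV. With deposited TPM the young maturation median turned to 0.11, 1 member was higher in NMN and 1 over all conditions, aged GV oocytes had a median of 0.14 with 1 lower, and the NMN median at GV was -0.16.

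GV young 1 was deposited under titles of both kinds and stays in the next settings. MII NMN 2, whose title says batch 2 with no further number, stays where the 2-n titles are left out and is absent where they stand alone. Without the 2-n titles, 8 were higher at maturation in young oocytes, and over all conditions 12 were lower and 1 higher. The maturation medians were -0.79 in aged oocytes and -3.58 in NMN oocytes, the latter with 32 lower. Over all genes those medians were -0.13 and -1.21. The aged against young medians were then -0.55 at GV and -0.55 at MII with 8 lower, beside 0.31 and -0.11 over all genes. NMN gave 5 lower at GV, and 29 lower and 1 higher at MII. Its medians at MII were -2.06 over members and -0.54 over all genes. Leaving out GV young 1 as well was chosen after seeing the data and leaves no young GV oocyte. The maturation medians were then -0.57 in aged and -3.35 in NMN oocytes with 31 lower, beside 0 and -1.09 over all genes. Over all conditions 13 were lower and 4 higher. The age median at MII was then -0.29 with 6 lower, beside 0 over all genes. NMN gave a median of -0.17 with 5 lower at GV, beside 0.01 over all genes. At MII NMN gave 29 lower and 1 higher, with medians of -2.13 over members and -0.62 over all genes. With the 2-n titles alone the medians were -1.14 in young at maturation, 0.86 for age at MII and 0.27 for NMN at GV, with 3 higher over all conditions; where this left 1 oocyte against 1, no count was made. With the low library kept, aged oocytes at maturation had a median of -0.028 and 2 lower, all conditions 2 lower, aged GV oocytes 11 lower and 0 higher, and NMN at GV a median of 0.62 with 0 lower and 2 higher. Without MII NMN 1 and 2, 11 members were higher at maturation in NMN oocytes and 7 against aged controls, the latter beside 9.83% of the genes kept there.

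With each oocyte left out in turn, the young maturation median ranged from -0.59 to -0.13 with 3 to 8 higher, the aged one from -0.996 to -0.12 with 4 to 8 higher, and the NMN one from -3.40 to -0.86 with 18 to 31 lower. Aged against young ranged from -0.55 to 0.10 with 7 to 12 lower at GV, and from -0.27 to 0.29 with 1 to 4 lower and 1 to 7 higher at MII. NMN against aged ranged from -0.27 to 0.19 with 3 to 6 lower and 0 to 4 higher at GV, and from -2.42 to -0.16 with 9 to 27 lower and 0 to 2 higher at MII. The causes of these shifts were not tested. No paired analysis was possible because the results come from no test and the title numbers name no shared animal. With 2 or 3 oocytes a group, absence of overlap is common by itself, and a gene at a few CPM cannot be told from one lost in sampling.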
